A study of Homo sapiens with 6 samples.

Results

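The 55 genes described here encode transcription factors that lay out tissues and cell identities in the embryo, and they are textbook targets of Polycomb repression. They were chosen by name and not by a rule on measured values, although earlier results of these data were known when they were chosen. They fall into GATA zinc finger (4), SOX (4), PAX (6), T-box (6), LIM homeodomain (5), forkhead (5), sine oculis homeobox (2, SIX2 and SIX3), NK-like homeodomain (8), paired-like homeodomain (4), TALE homeodomain (6), HAND (2) and ZIC or KLF zinc finger (3) genes. All 55 were found in the expression table, which holds 28452 genes once the transcripts of each gene are summed. RNA sequencing was done on the lung adenocarcinoma cell line A549, of human origin, that carried a lentiviral hairpin and expressed it stably. The groups were shCBX8-1 and shCBX8-2, both labelled as CBX8 knockdown, and control, which carried a control hairpin, with 2 libraries in each. Neither the hairpin sequences, nor whether a line was a clone or a pool, nor whether the 2 libraries of a group were separate cultures is stated, so the p-values measure the spread between these libraries, which may be technical.

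Polycomb group proteins keep genes off. Polycomb repressive complex 2 (PRC2) places methyl groups on lysine 27 of histone H3, and CBX proteins such as CBX8 bind that mark as subunits of Polycomb repressive complex 1 (PRC1). In embryonic stem cells many developmental transcription factors carry this mark at CpG-rich promoters and are silent until a lineage needs them, and cancer cells can hold such genes silent or express a subset of them. No chromatin mark or binding was measured here, so the name of the set rests on that background and not on these cells.

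CBX8 itself, the targeted gene, had 7.79 and 7.70 CPM in shCBX8-1 and 17.7 and 13.8 CPM in shCBX8-2, against 24.6 and 26.3 CPM in control. Levels are in CPM, counts scaled to a common library total by edgeR's TMM factors, with no correction for gene length. The libraries held 64197784 to 67169537 estimated counts in all, of which 20512 to 24452 belonged to the 55 genes. Of 12 lung epithelial markers 10 could be tested, and the keratin KRT8 was at 11729 CPM or more in every library and was higher in shCBX8-2 than in control (log2 0.24 ± 0.06, SE, adjusted p = 0.0463). The surfactant genes SFTPA1, SFTPA2, SFTPB and SFTPC, which define type II alveolar cells, were at 0.302 CPM or less. Other lung epithelial markers moved in both directions. For the knockdown as a whole the keratin KRT19 rose (1.99 ± 0.28, SE, adjusted p = 0.0141) and the cadherin CDH1 fell (-0.55 ± 0.11, adjusted p = 0.0312). Both did so in shCBX8-1 (3.39 ± 0.32 and -0.92 ± 0.13). In shCBX8-2 the adhesion gene EPCAM (1.17 ± 0.20, adjusted p = 0.0130) and KRT18 (0.28 ± 0.07, adjusted p = 0.0369) rose, and NKX2-1, a lung lineage factor, fell (-2.34 ± 0.59, adjusted p = 0.0477). The list's sum was 22060 and 22040 CPM in shCBX8-1 and 31542 and 27928 CPM in shCBX8-2, against 25406 and 24527 CPM in control, and its part in the members' changes was not tested. Replicates were further apart in shCBX8-2 (median absolute log2 difference 0.24) than in shCBX8-1 (0.13) or control (0.13). In shCBX8-2 the deviation of genes from the overall mean followed GC content in opposite directions (Spearman 0.41 in replicate 1 and -0.32 in replicate 2 across 12305 genes, which are not independent replicates), and the transcripts of the tested members were richer in GC (median 58.5%) than those of all genes tested (50.4%).

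The control level divided the genes into 3 classes. In A549 control cells 33 of the 55 (60%) were expressed at a mean of 1 CPM or more, 7 (12.7%) were low, between 0.1 and 1 CPM, and 15 (27.3%) were near-silent, under 0.1 CPM. Of all genes measured, 48.4% were expressed, 12% low and 39.5% near-silent. The nearest members on either side of the upper limit were GATA5, with a control mean of 1.22 CPM, and EN1, with 0.976 CPM. In bulk RNA, fewer cells that express a gene and less RNA per cell cannot be told apart.

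The near-silent members came from most of the families. They were SOX1, PAX3, TBX5, TBX15, FOXF1, FOXL2, SIX2, SIX3, DLX5, OTX2, IRX1, HAND1, ISL1, ZIC1 and BARX1, whose textbook roles lie in the neural plate (SOX1, SIX3, OTX2, ZIC1), neural crest and muscle (PAX3), heart (TBX5, HAND1, ISL1), ovary (FOXL2), kidney progenitors (SIX2) and stomach mesenchyme (BARX1). Of these, 9 had no counts in any of the 6 libraries, namely SOX1, PAX3, TBX5, FOXF1, FOXL2, OTX2, IRX1, HAND1 and ZIC1, and a floor of 3 counts over the 4 knockdown libraries corresponds to 0.0117 CPM. That floor covers counting error only.

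In the knockdown groups the near-silent members stayed at the edge of detection. The highest count of any of the 15 in any library was 15, for DLX5 in shCBX8-1 replicate 2, and the highest group means were 0.137 CPM in shCBX8-1 and 0.119 CPM in shCBX8-2. SIX2, which maintains nephron progenitors, had 5 and 10 counts in the shCBX8-2 libraries, against 0 in both control libraries and 0 in both shCBX8-1 libraries. Set against the floor of 3 counts over the control group, SIX2 was at least 5.27-fold higher in shCBX8-2 than in control, a bound that takes its own counts as exact. SIX2 was not tested because it fell below the filter on low counts. Counts of this size also differed between replicates, as DLX5 had 0 in shCBX8-1 replicate 1 and 15 in replicate 2. TBX15 had 0.169 and 0.106 CPM in shCBX8-1 and 0.158 and 0 CPM in shCBX8-2, against 0 and 0.120 CPM in control, so its groups overlapped.

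The 7 low members were SOX7, PAX6, TBX20, FOXC2, DLX2, EN1 and HAND2. PAX6, a master gene of eye development, had no counts in any of the 4 knockdown libraries, against 10 and 9 counts in the control libraries. By the floor of 3 counts over the knockdown libraries PAX6 was at least 12.2-fold lower, a bound that takes the control counts as exact. Those counts were assigned to a different transcript in each control library, and the genes ELP4 and PAX6-AS1 overlap PAX6. Like SIX2, PAX6 was below the filter and was not tested. EN1, a patterning gene of the midbrain and limb, had 0.429 and 0.955 CPM in shCBX8-1 and 0.0631 and 0.302 CPM in shCBX8-2, against 1.06 and 0.897 CPM in control (shCBX8-2 against control, log2 fold change -2.41 ± 0.80, SE, adjusted p = 0.1001). By edgeR no low member passed in any contrast with all 6 libraries, and by the DESeq2 Wald test EN1 passed in shCBX8-2 (adjusted p = 0.0422). Without shCBX8-2 replicate 2, EN1 passed in shCBX8-2 (-3.91, adjusted p = 0.0114) and for the knockdown as a whole (-2.20, adjusted p = 0.0237), and HAND2 passed in shCBX8-2 (-2.88, adjusted p = 0.0440). In the same fit EN1, HAND2 and TBX20 were lower in shCBX8-2 than in shCBX8-1.

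**Figure D1:**
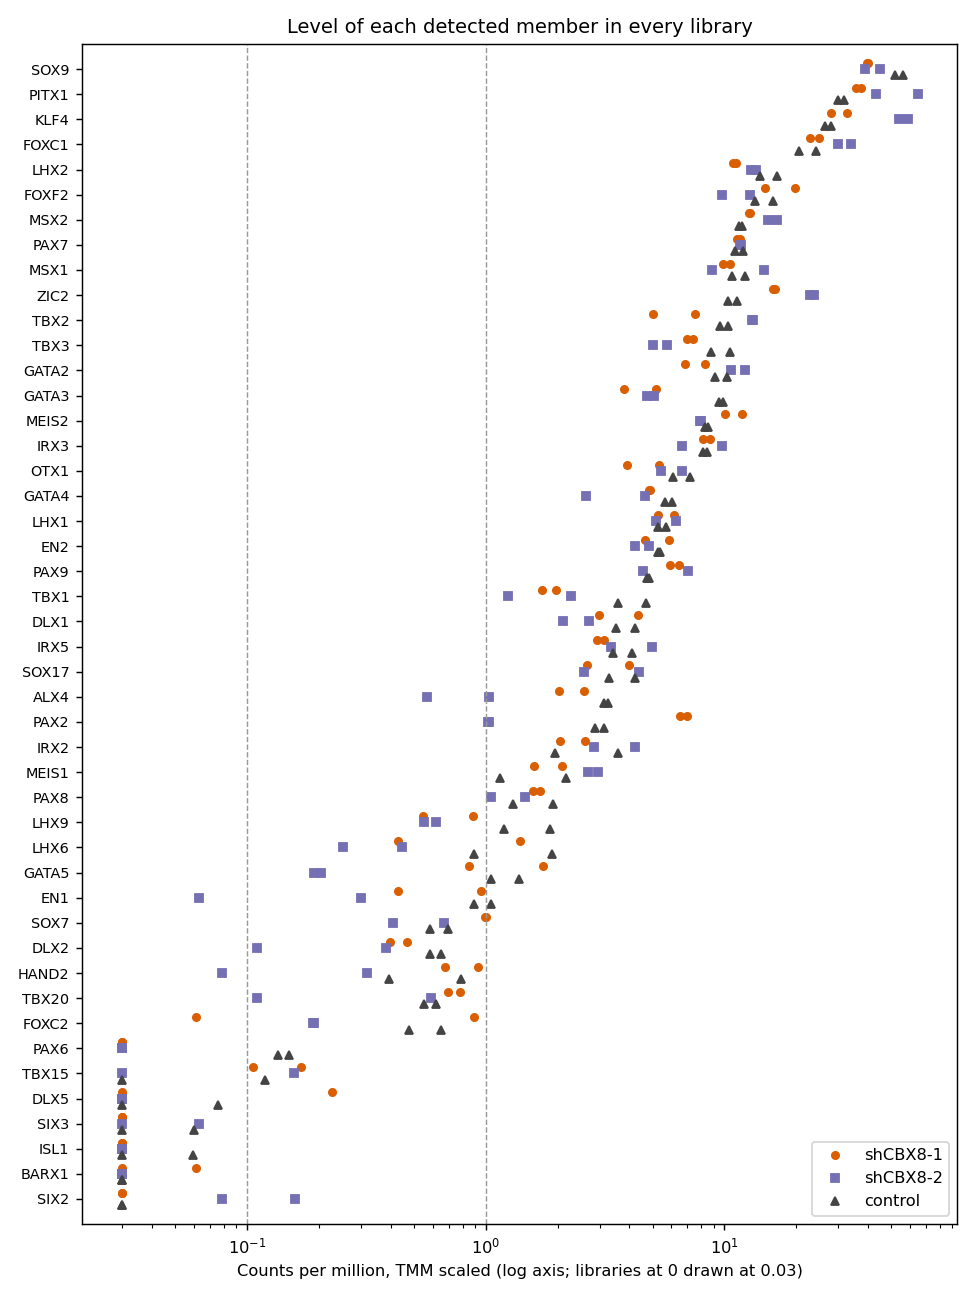
Level of each member with a count in any library, on a log axis in CPM, with 1 point per library for shCBX8-1 (circles), shCBX8-2 (squares) and control (triangles). Members are ordered by control mean and the dashed lines at 0.1 and 1 CPM separate near-silent, low and expressed genes. Libraries at 0 are drawn at 0.03. In the near-silent rows most points lie at 0 in every group, and the highest group mean is 0.137 CPM.

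Members that neighbour each other on a chromosome did not share a class in every case. Among the 55 there were 8 pairs within 1 Mb. The forkhead genes FOXC1 and FOXF2, 214.3 kb apart, were both expressed in control (22.3 and 14.7 CPM), and so were IRX3 and IRX5, 644.1 kb apart (8.28 and 3.77 CPM). By contrast TBX3 had 9.69 CPM and TBX5, 261.8 kb away, had none, and IRX2 had 2.77 CPM whereas IRX1, 844.2 kb away, had none. SIX2 and SIX3, 59.1 kb apart, were both near-silent, and DLX1 (3.86 CPM) was expressed 9.8 kb from the low DLX2 (0.616 CPM).

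The start sites of the members were rich in CpG, the dinucleotide that unmethylated Polycomb target promoters carry in excess. RefSeq windows of GRCh38.p14, 250 bases before to 50 after the start, were at hand for 37 of the 55. For each gene the window nearest the outer end of its annotated span was taken, which need not be the start in use. For GATA2 it lay at the distal start, whose transcript had at most 1 count in any library. Of these, 33 (89.2%) had at least 50% GC and an observed over expected CpG ratio of at least 0.6, against 46.7% of 27305 genes with a window and 63.1% of 15843 protein-coding genes. The median window held 28 CG dinucleotides, against 14 over all genes. The CG motif reads the same on both strands, so each was counted once.

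The share of CpG-rich starts was much the same in expressed and near-silent members. CpG-rich windows made up 20 of 23 expressed (87%), 4 of 4 low and 9 of 10 near-silent members (90%). The windows below the limits were those of GATA3, PAX2, PAX8 and OTX2, and other start sites of these genes were not examined. The 250 bases before the start are printed for 5 members, with every CG in capitals: ZIC2 and KLF4, which rose in the knockdown, GATA3 and PAX2, which passed the test and lie below the limits, and ISL1, which is near-silent with a CpG-rich start. They lie at chr13:99981534-99981783 (ZIC2, plus strand), chr9:107489770-107490019 (KLF4, minus strand), chr10:8045083-8045332 (GATA3, plus strand), chr10:100735146-100735395 (PAX2, plus strand) and chr5:51383198-51383447 (ISL1, plus strand), all in GRCh38.p14 and written 5′ to 3′ on the gene's strand.
ZIC2: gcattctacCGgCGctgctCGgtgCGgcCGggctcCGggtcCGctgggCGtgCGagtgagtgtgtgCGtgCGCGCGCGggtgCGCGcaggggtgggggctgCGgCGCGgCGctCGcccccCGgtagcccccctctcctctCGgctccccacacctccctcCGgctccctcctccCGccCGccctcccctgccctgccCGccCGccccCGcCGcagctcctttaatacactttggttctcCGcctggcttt
KLF4: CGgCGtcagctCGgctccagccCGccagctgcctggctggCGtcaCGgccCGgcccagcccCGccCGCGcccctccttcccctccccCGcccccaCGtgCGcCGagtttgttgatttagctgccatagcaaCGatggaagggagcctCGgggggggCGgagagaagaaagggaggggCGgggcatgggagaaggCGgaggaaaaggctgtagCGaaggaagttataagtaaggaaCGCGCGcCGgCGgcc
GATA3: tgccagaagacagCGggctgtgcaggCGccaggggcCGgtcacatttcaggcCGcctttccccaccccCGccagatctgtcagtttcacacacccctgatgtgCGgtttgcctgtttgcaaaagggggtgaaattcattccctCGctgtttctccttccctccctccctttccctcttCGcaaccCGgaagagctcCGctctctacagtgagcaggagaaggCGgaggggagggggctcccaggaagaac
PAX2: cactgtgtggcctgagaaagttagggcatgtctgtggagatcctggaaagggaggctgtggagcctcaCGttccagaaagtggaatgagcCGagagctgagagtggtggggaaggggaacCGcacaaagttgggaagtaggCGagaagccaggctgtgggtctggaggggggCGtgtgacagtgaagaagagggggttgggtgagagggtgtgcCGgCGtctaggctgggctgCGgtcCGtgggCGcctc
ISL1: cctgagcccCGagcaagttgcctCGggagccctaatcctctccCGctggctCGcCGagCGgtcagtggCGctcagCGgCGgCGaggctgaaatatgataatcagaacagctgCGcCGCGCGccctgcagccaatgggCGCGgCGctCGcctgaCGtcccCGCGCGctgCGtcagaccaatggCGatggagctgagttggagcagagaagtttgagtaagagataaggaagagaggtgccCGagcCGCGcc
Within these 250 bases ZIC2 held 31 CG dinucleotides, KLF4 25 and ISL1 27, against 11 in GATA3 and 10 in PAX2. The ISL1 stretch is at least as dense in CG as that of KLF4, yet ISL1, a LIM factor of motor neurons and heart progenitors, had 4 counts in control replicate 2 and none in the other 5 libraries.

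**Figure D2:**
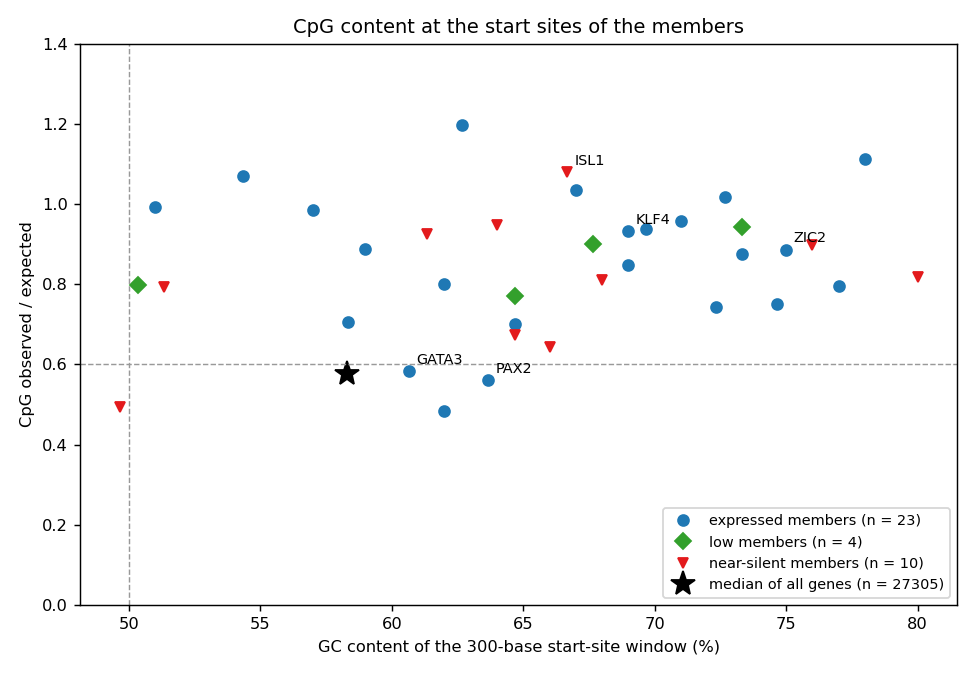
GC content in percent against the observed over expected CpG ratio of the 300-base start-site window, 1 point per member with a window, for expressed (circles), low (diamonds) and near-silent members (triangles). The star is the median of 27305 genes and the dashed lines mark 50% and 0.6. Of the 37 members 33 lie above both lines, and expressed and near-silent members are mixed.

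For the knockdown as a whole 26 of the tested members had a negative and 13 a positive log2 fold change against control, and 5 passed the test. Over all 17115 genes tested, 9460 were negative and 7654 positive. Of 44 other tested genes of the same families, 29 were negative and 15 positive. Of the 55, 39 passed the filter on low counts and were tested with edgeR's quasi-likelihood test, with Benjamini-Hochberg adjustment over the 17115 genes tested. This fit of all 6 libraries, without GC correction or replicate block, is called the main fit. A gene that passes the filter only through the group in which it is high had to differ, so the counts over these 39 are a description. With both knockdown groups averaged, ZIC2 and KLF4 rose and GATA3, SOX9 and TBX3 fell, 12.8% of the 39, against 6.79% of all genes tested (3.31% higher and 3.48% lower). In shCBX8-1 PAX2 rose and GATA3 fell (5.13%, against 2.47% of all genes, 1.34% higher and 1.13% lower). In shCBX8-2 ZIC2, KLF4 and PITX1 rose and GATA3, GATA5, PAX2, TBX3 and ALX4 fell (20.5%, against 12.7% of all genes, 6.03% higher and 6.64% lower). The members' median log2 fold change was -0.15 for the knockdown as a whole, -0.08 in shCBX8-1 and -0.23 in shCBX8-2, against -0.04, -0.01 and -0.04 over all genes tested. The comparisons share the control libraries.

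All 4 knockdown libraries lay above both control libraries for 4 of the 39 (10.3%; MSX2, PITX1, ZIC2 and KLF4), close to the 13.2% of all genes. All 4 lay below both for 9 (23.1%; GATA3, GATA4, SOX9, TBX1, TBX3, LHX2, LHX9, DLX2 and ALX4), against 15.5% of all genes. Summed over the 55, the level was 318 and 311 CPM in shCBX8-1 and 385 and 357 CPM in shCBX8-2, against 325 and 334 CPM in control. The shCBX8-1 sums lay below both controls and the shCBX8-2 sums above both.

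The shCBX8-2 libraries also differed from the shCBX8-1 libraries. In that contrast KLF4, TBX2 and ZIC2 were higher in shCBX8-2 and PAX2, GATA5 and ALX4 lower, 15.4% of the 39, against 9.82% of all genes (4.05% higher and 5.77% lower). Of the 10 members that passed in any contrast of the main fit, GATA3 and PAX2 did so in each knockdown group against control, GATA3 with the same sign and PAX2 with opposite signs. All 10 belong to the expressed class. The other 23 expressed members passed in no contrast of the main fit, with log2 fold changes from -1.30 to 0.46 for the knockdown as a whole.

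**Figure D3:**
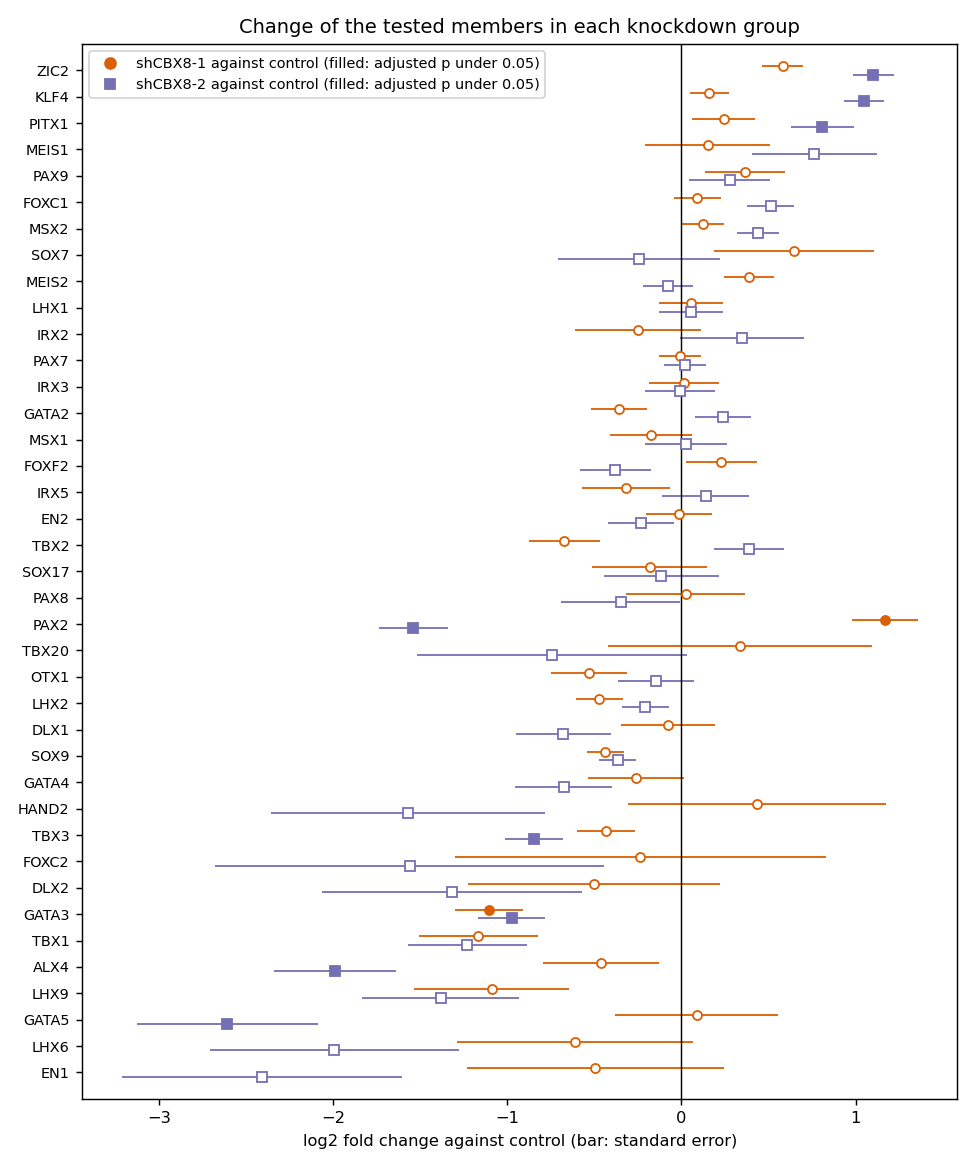
Log2 fold change of the 39 tested members in shCBX8-1 (circles) and shCBX8-2 (squares) against control, with bars of 1 standard error and filled symbols for an adjusted p under 0.05. Members are ordered by the mean change of both groups. PAX2 lies at 1.17 in shCBX8-1 and -1.54 in shCBX8-2, whereas GATA3 lies near -1 in both.

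The counts of members called changed when single libraries were left out, and so did those of all genes. For the knockdown as a whole the 5 members became 0 without control replicate 1, control replicate 2, shCBX8-1 replicate 1 or shCBX8-1 replicate 2, although 11, 7, 11 and 13 members had an unadjusted p under 0.05 there by edgeR. The number of all genes called was 1, 1, 29 and 16 in the same order. Without shCBX8-2 replicate 1 or 2 the members called were 10 and 9, and all genes called 3244 and 4467. The 2 members of shCBX8-1 became 0 without either control or either shCBX8-1 library (7, 5, 8 and 7 at an unadjusted p under 0.05; all genes called 7, 0, 0 and 0) and 6 without either shCBX8-2 library, where 13% of all genes passed. The 8 of shCBX8-2 became 0 without either control library (12 and 11 at an unadjusted p under 0.05; 1.01% and 0.781% of all genes passed). They became 5 without either shCBX8-1 library (5.39% and 5.42% of all genes) and 12 without shCBX8-2 replicate 1 or 2 (19.5% and 30.9%). The 6 that differed between the knockdown groups became 2 without either control library (3.46% and 3.47% of all genes) and 1 without either shCBX8-1 library (0.708% and 0.807%). They became 8 and 12 without shCBX8-2 replicate 1 and 2 (16% and 28.6%). No called value changed sign, and all 21 called values still passed once the trend of each library on GC content was removed.

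The zinc finger genes ZIC2 and KLF4 were the members that rose for the knockdown as a whole. ZIC2 (chr13:99981784-99986765), a factor of forebrain and neural tube development, had 16.3 and 16.01 CPM in shCBX8-1 and 23.6 and 22.7 CPM in shCBX8-2, against 10.3 and 11.2 CPM in control. Every knockdown library was above both controls, and the shCBX8-2 libraries were above those of shCBX8-1. The log2 fold change was 0.84 ± 0.10 for the knockdown as a whole (SE, adjusted p = 0.0107), 1.10 ± 0.12 in shCBX8-2 (adjusted p = 0.00392) and 0.58 ± 0.12 in shCBX8-1, which did not pass (adjusted p = 0.0581). Its higher level in shCBX8-2 than in shCBX8-1 passed as well (0.52 ± 0.12, adjusted p = 0.0386). Over the alternatives tried, the value for the knockdown as a whole stayed between 0.78 and 0.90 and its adjusted p reached 0.178.

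KLF4 (chr9:107484852-107489769), a factor of epithelial differentiation and pluripotency, had 28.0 and 32.6 CPM in shCBX8-1 and 58.4 and 53.8 CPM in shCBX8-2, against 26.4 and 27.8 CPM in control. The rise lay in shCBX8-2 (1.05 ± 0.11, adjusted p = 0.00399), while shCBX8-1 gave 0.16 ± 0.11 (adjusted p = 0.548). The difference between the knockdown groups was 0.89 ± 0.11 (adjusted p = 0.00736), and the knockdown as a whole gave 0.61 ± 0.10 (adjusted p = 0.0213). The third gene of the group, ZIC1, was at 0 in all 6 libraries.

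GATA3 fell in both knockdown groups. GATA3 (chr10:8045333-8075198), a regulator of T cells and luminal epithelium, had 5.18 and 3.79 CPM in shCBX8-1 and 5.08 and 4.75 CPM in shCBX8-2, against 9.48 and 9.82 CPM in control. The 4 knockdown libraries did not overlap the controls. The log2 fold change was -1.10 ± 0.19 in shCBX8-1 (adjusted p = 0.0416), -0.97 ± 0.19 in shCBX8-2 (adjusted p = 0.0226) and -1.04 ± 0.16 for the knockdown as a whole (adjusted p = 0.0176). The difference between the groups was 0.13 ± 0.19 (adjusted p = 0.715). The shCBX8-1 call held in 7 of the 14 alternatives tried apart from a minimum fold, with values from -1.33 to -0.88. It was lost without either control or either shCBX8-1 library. With all 6 libraries kept, it was also lost with no filter on low counts, with repeated accessions left out and with the replicate block. The shCBX8-2 call held in 12 of these 14, and was lost without either control library (adjusted p = 0.124 and 0.1495) and under the minimum of 2-fold. An antisense gene, GATA3-AS1, overlaps it, and whether the counting used strand is not stated, so reads of the 2 genes cannot be told apart. A GATA3 transcript had 148 and 189 estimated counts in shCBX8-1 and 186 and 161 in shCBX8-2, against 463 and 459 in control. The other had 190 and 61 in shCBX8-1 and 136 and 138 in shCBX8-2, against 166 and 198 in control, and overlapped the controls. Neither transcript passed the test by edgeR.

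Of the other GATA genes, GATA5 (chr20:62463497-62475995), a factor of heart and gut endoderm, fell in shCBX8-2 and did not pass in shCBX8-1. It had 1.73 and 0.849 CPM in shCBX8-1 and 0.205 and 0.191 CPM in shCBX8-2, against 1.06 and 1.37 CPM in control. The log2 fold change in shCBX8-2 was -2.61 ± 0.52 against control (adjusted p = 0.0232) and -2.69 ± 0.52 against shCBX8-1 (adjusted p = 0.0257), while shCBX8-1 gave 0.09 ± 0.47 against control (adjusted p = 0.960). GATA4, its relative in heart and endoderm, had 4.89 and 4.82 CPM in shCBX8-1 and 4.67 and 2.62 CPM in shCBX8-2, against 6.001 and 5.65 CPM in control. All 4 knockdown libraries were below both controls for GATA4, but the change did not pass (-0.47 ± 0.23, adjusted p = 0.285). GATA2, a factor of blood progenitors, had 8.28 and 6.82 CPM in shCBX8-1 and 12.2 and 10.7 CPM in shCBX8-2, against 9.11 and 10.3 CPM in control. For the gene as a whole no contrast passed in the main fit. There the shCBX8-2 minus shCBX8-1 difference was 0.60 ± 0.16 (SE, adjusted p = 0.0674). That difference passed by DESeq2 (adjusted p = 0.0214) and by edgeR with GC correction (adjusted p = 0.0203). The antisense gene GATA2-AS1 overlaps GATA2.

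The counts of GATA2 were divided differently between its transcripts in the knockdown and control libraries, a pattern chosen after its values were seen. GATA2 was not the only such member, and MEIS2 transcripts are described with the TALE genes. One GATA2 transcript lacks 42 bases, or 14 codons, at the beginning of an exon, which code for part of the second zinc finger. The exon lies at chr3:128481819-128481944 in GRCh38 (minus strand) and is printed 5′ to 3′, with the 42 bases absent from the shorter transcript (chr3:128481903-128481944) in capitals.
GATA2 exon: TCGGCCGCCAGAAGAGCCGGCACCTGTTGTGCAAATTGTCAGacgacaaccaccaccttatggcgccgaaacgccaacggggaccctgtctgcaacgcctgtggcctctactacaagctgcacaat
The transcript with the shorter exon was given 4 and 0 estimated counts in shCBX8-1 and 0 and 0 in shCBX8-2, against 260 and 344 in control. The transcript with the full exon of 126 bases had 536 and 450 counts in shCBX8-1 and 772 and 671 in shCBX8-2, against 344 and 341 in control. For both transcripts the knockdown libraries did not overlap the controls. The share of all transcripts without such overlap was not computed. Among all genes tested, 13.2% lay above and 15.5% below both controls in all 4 knockdown libraries.

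These transcript values did not pass the test. A fit of the 40859 testable transcripts as deposited gave the shorter transcript -9.17 ± 1.68 for the knockdown as a whole (SE, adjusted p = 0.354). That fitted value depends on the prior count, because the shorter transcript is at 0 in shCBX8-2. The longer transcript gave 0.84 ± 0.24 (adjusted p = 0.448). By edgeR 0 of the 60 tested transcript entries of members passed in any contrast, with 9 at an unadjusted p under 0.05 for the knockdown as a whole, 5 in shCBX8-1, 10 in shCBX8-2 and 5 between the knockdown groups. Among all transcripts 0% passed against control in each comparison and 0.00245% between the knockdown groups. The 2 transcripts also have different ends in the annotation, and the estimates are not junction reads.

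**Figure D4:**
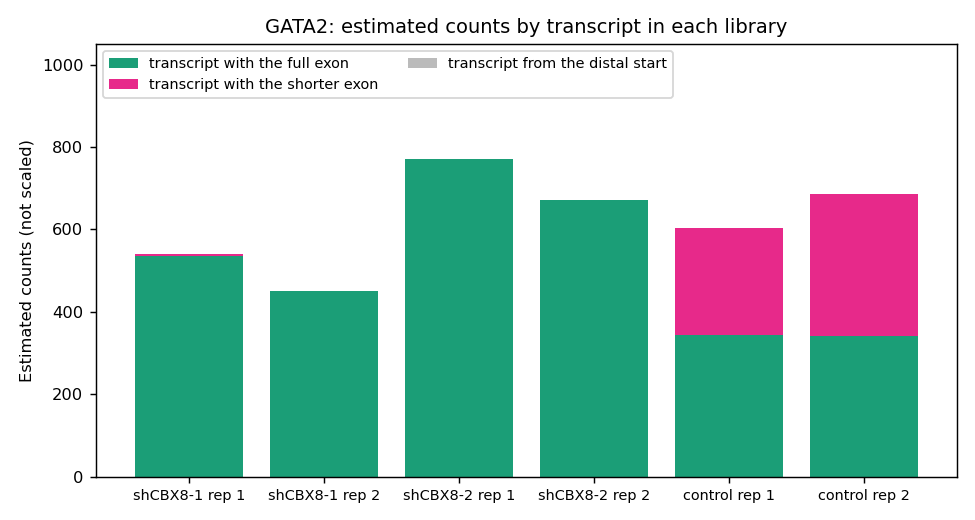
Estimated counts of GATA2, not scaled, stacked by transcript for each of the 6 libraries. The transcript with the shorter exon holds 260 and 344 counts in the control libraries and at most 4 in any knockdown library, while the transcript with the full exon holds 341 or more in every library. The transcript from the distal start has at most 1 count.

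PAX2 moved in opposite directions in the knockdown groups. PAX2 (chr10:100735396-100829944), a factor of kidney and optic development, had 6.95 and 6.50 CPM in shCBX8-1 and 1.02 and 1.03 CPM in shCBX8-2, against 2.86 and 3.12 CPM in control. The 3 groups did not overlap, with control between the others. On the log2 scale PAX2 rose by 1.17 ± 0.19 in shCBX8-1 (SE, adjusted p = 0.0336). In shCBX8-2 it fell by 1.54 ± 0.20 (adjusted p = 0.00625). The shCBX8-2 minus shCBX8-1 difference was -2.71 ± 0.20 (adjusted p = 0.00131). That difference passed in all 14 of these alternatives and at a minimum of 2-fold, with an adjusted p of at most 0.0357. The mean over both groups, -0.19 ± 0.16 (adjusted p = 0.555) averages these opposite changes.

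The gene total of PAX2 was steady between replicates while its transcript estimates were not. One transcript had 234 estimated counts in shCBX8-1 replicate 1 and 0 in each of the other 5 libraries, and another had 0 in shCBX8-1 replicate 1 and 237 in replicate 2. Only the gene total is therefore compared.

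The other PAX genes did not pass in any contrast. PAX7, a factor of muscle stem cells, had 11.7 and 11.2 CPM in shCBX8-1 and 11.7 and 11.7 CPM in shCBX8-2, against 11.9 and 11.1 CPM in control, a log2 fold change of 0.01 ± 0.11 (adjusted p = 0.980). PAX8, which acts in thyroid and kidney, averaged 1.63 ± 0.08 CPM in shCBX8-1 and 1.26 ± 0.29 CPM in shCBX8-2, against 1.60 ± 0.44 CPM in control (SD, n = 2 each). PAX9, which acts in teeth and pharyngeal pouches, averaged 6.17 ± 0.39 CPM in shCBX8-1 and 5.80 ± 1.74 CPM in shCBX8-2, against 4.79 ± 0.08 CPM in control (SD, n = 2 each). PAX3 was at 0 throughout, and PAX6 is described among the low members.

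SOX9 (chr17:72121020-72126416), a regulator of cartilage and of lung and gut progenitors, fell slightly in the knockdown. It had 39.5 and 39.8 CPM in shCBX8-1 and 38.6 and 44.7 CPM in shCBX8-2, against 51.5 and 55.9 CPM in control, so the knockdown libraries did not overlap the controls. The log2 fold change was -0.40 ± 0.09 for the knockdown as a whole (SE, adjusted p = 0.0472), with -0.44 ± 0.11 in shCBX8-1 (adjusted p = 0.0894) and -0.37 ± 0.11 in shCBX8-2 (adjusted p = 0.0669). The call sat close to the threshold and was lost in 9 of the 14 alternatives tried apart from a minimum fold, with an adjusted p of up to 0.399. SOX17, an endoderm and endothelial factor, averaged 3.31 ± 0.93 CPM in shCBX8-1 and 3.47 ± 1.27 CPM in shCBX8-2, against 3.76 ± 0.67 CPM in control (SD, n = 2 each). SOX7, low in control, had 0.997 and 1.00 CPM in shCBX8-1 and 0.410 and 0.668 CPM in shCBX8-2, against 0.694 and 0.583 CPM in control, and did not pass.

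Of the T-box genes, which act in limb, heart and mammary development, TBX3 fell. TBX3 (chr12:114670255-114684175), a repressor that can hold back senescence, had 7.38 and 6.96 CPM in shCBX8-1 and 5.77 and 5.01 CPM in shCBX8-2, against 8.79 and 10.6 CPM in control. All 4 knockdown libraries were below both controls, and those of shCBX8-2 were lowest. The log2 fold change was -0.64 ± 0.14 for the knockdown as a whole (SE, adjusted p = 0.0450) and -0.85 ± 0.17 in shCBX8-2 (adjusted p = 0.0226), while shCBX8-1 gave -0.43 ± 0.17 (adjusted p = 0.244). The TBX3 call for the knockdown as a whole sat close to the threshold. It held in 7 of the 14 alternatives tried apart from a minimum fold, with values from -0.77 to -0.50. The shCBX8-2 call held in 9 of these 14. The difference between the knockdown groups did not pass (-0.41 ± 0.17, adjusted p = 0.176). The antisense gene TBX3-AS1 overlaps TBX3.

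TBX2 (chr17:61399843-61409466), the closest relative of TBX3, passed between the knockdown groups and in neither of them against control. It had 7.53 and 5.00 CPM in shCBX8-1 and 13.0 and 13.1 CPM in shCBX8-2, against 10.4 and 9.61 CPM in control, which lay between them. The shCBX8-2 minus shCBX8-1 difference was 1.06 ± 0.21 (adjusted p = 0.0257), and against control the values were -0.67 ± 0.20 in shCBX8-1 (adjusted p = 0.157) and 0.39 ± 0.20 in shCBX8-2 (adjusted p = 0.256). TBX1, a pharyngeal arch gene, had 1.72 and 1.97 CPM in shCBX8-1 and 2.29 and 1.24 CPM in shCBX8-2, against 4.69 and 3.59 CPM in control. The 4 knockdown libraries were below both controls, and its log2 fold change of -1.20 ± 0.28 missed the threshold by edgeR (adjusted p = 0.0542) and passed by DESeq2 (adjusted p = 0.0119). The gene GNB1L overlaps TBX1. TBX20, a heart factor, averaged 0.740 ± 0.060 CPM in shCBX8-1 and 0.349 ± 0.338 CPM in shCBX8-2, against 0.586 ± 0.046 CPM in control (SD, n = 2 each), and TBX5 was at 0 throughout.

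**Figure D5:**
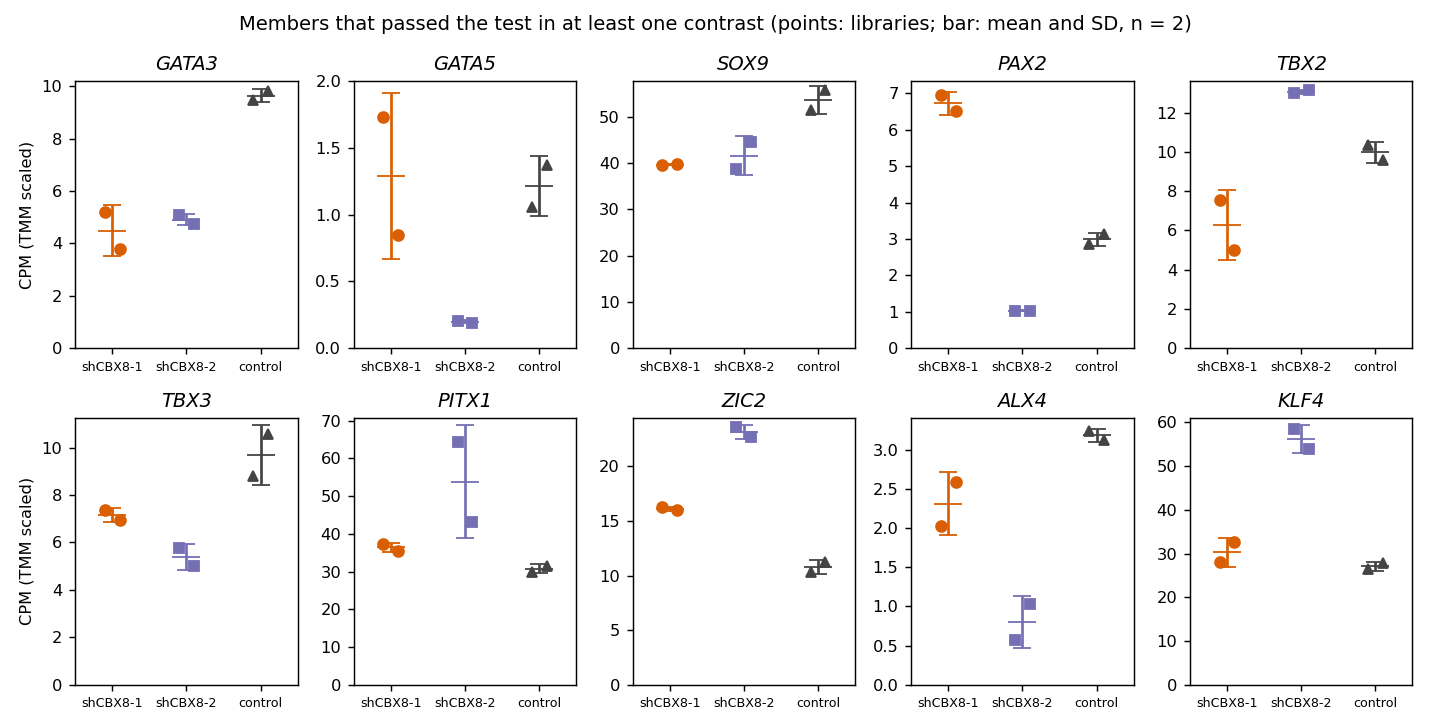
Levels in CPM of the 10 members that passed in at least 1 contrast of the main fit, with 1 panel per gene and axes that begin at 0. Points are libraries and the bars give mean and SD (n = 2 each) for shCBX8-1, shCBX8-2 and control from left to right. PAX2 is above control in shCBX8-1 and below it in shCBX8-2, GATA3 is below control in both, and ZIC2 is above control in both.

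The paired-like genes PITX1 and ALX4 changed in opposite directions in shCBX8-2. PITX1 (chr5:135027734-135034789), a hindlimb and pituitary factor, had 37.3 and 35.5 CPM in shCBX8-1 and 64.4 and 43.3 CPM in shCBX8-2, against 29.9 and 31.6 CPM in control. Every knockdown library was above both controls, but the shCBX8-2 libraries differed widely, and the rise of 0.81 ± 0.18 in that group (SE, adjusted p = 0.0322) became 0.51 without shCBX8-2 replicate 1, where it still passed. The values were 0.24 ± 0.18 in shCBX8-1 (adjusted p = 0.570) and 0.53 ± 0.16 for the knockdown as a whole (adjusted p = 0.103). PITX1-AS1 overlaps PITX1.

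ALX4 (chr11:44260440-44310139), a craniofacial and limb patterning gene, had 2.02 and 2.59 CPM in shCBX8-1 and 0.567 and 1.03 CPM in shCBX8-2, against 3.24 and 3.12 CPM in control. The groups did not overlap. ALX4 fell by 1.99 ± 0.35 in shCBX8-2 (SE, adjusted p = 0.0157) and was lower there than in shCBX8-1 (-1.53 ± 0.35, adjusted p = 0.0420), while the shCBX8-1 value of -0.46 ± 0.33 did not pass (adjusted p = 0.556). The difference between the knockdown groups became -1.15 without shCBX8-2 replicate 1 and no longer passed. OTX1, a forebrain gene, averaged 4.61 ± 1.01 CPM in shCBX8-1 and 6.01 ± 0.85 CPM in shCBX8-2, against 6.65 ± 0.78 CPM in control (SD, n = 2 each), and OTX2 was at 0 throughout.

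No LIM homeodomain gene passed in the main fit, yet LHX2 and LHX9 were below both controls in all 4 knockdown libraries. LHX2, which patterns cortex, eye and hair follicle, had 11.2 and 10.9 CPM in shCBX8-1 and 12.9 and 13.5 CPM in shCBX8-2, against 14.02 and 16.5 CPM in control (-0.34 ± 0.11, SE, adjusted p = 0.132). In shCBX8-1 LHX2 passed by DESeq2 (adjusted p = 0.0494) and by edgeR with only the libraries compared (adjusted p = 0.0425). LHX9, a gonad gene, had 0.889 and 0.546 CPM in shCBX8-1 and 0.552 and 0.620 CPM in shCBX8-2, against 1.19 and 1.87 CPM in control (-1.24 ± 0.37, adjusted p = 0.0998). LHX6, an interneuron gene, had 0.429 and 1.39 CPM in shCBX8-1 and 0.252 and 0.445 CPM in shCBX8-2, against 0.890 and 1.90 CPM in control. Its replicates differed by more than 1 log2 in shCBX8-1 and control, and its value of -1.30 ± 0.57 had the largest size of the expressed members that did not pass in the main fit (adjusted p = 0.228). In shCBX8-2 LHX6 passed by edgeR with GC correction and replicate block (-1.95, adjusted p = 0.0404). LHX1, a kidney and neural gene, averaged 5.70 ± 0.65 CPM in shCBX8-1 and 5.71 ± 0.78 CPM in shCBX8-2, against 5.49 ± 0.27 CPM in control (SD, n = 2 each). A repeated copy of its accession held 171 to 223 of the counts of LHX1 in a library, so its level depends on whether copies are added.

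Of the forkhead genes FOXC1, a factor of mesoderm and vessels, had 24.8 and 22.7 CPM in shCBX8-1 and 29.8 and 33.8 CPM in shCBX8-2, against 24.1 and 20.5 CPM in control. Both shCBX8-2 libraries were above both controls, with a log2 fold change of 0.51 ± 0.13 that missed the threshold by edgeR (adjusted p = 0.0513) and passed by DESeq2 (adjusted p = 0.00391). FOXF2, a gene of gut and lung mesenchyme, had 19.7 and 14.8 CPM in shCBX8-1 and 12.8 and 9.74 CPM in shCBX8-2, against 15.98 and 13.4 CPM in control. The shCBX8-2 libraries were the lowest for FOXF2, and no contrast passed in the main fit. By edgeR with GC correction and replicate block, FOXF2 was lower in shCBX8-2 than in shCBX8-1 (-0.58, adjusted p = 0.0227). FOXC2, a lymphatic gene, was at 0.894 CPM or less in every library, and FOXF1 and FOXL2 were at 0.

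The NK-like homeodomain genes passed in no contrast of the main fit. MSX2, a target of BMP signalling in skull and limb, had 12.7 and 12.8 CPM in shCBX8-1 and 15.2 and 16.5 CPM in shCBX8-2, against 11.5 and 11.9 CPM in control. All 4 knockdown libraries of MSX2 were above both controls, with 0.44 ± 0.12 in shCBX8-2 (SE, adjusted p = 0.0593 in the main fit and 0.0108 by DESeq2). With GC correction MSX2 passed there by edgeR as well (adjusted p = 0.0339). MSX1 averaged 10.2 ± 0.53 CPM in shCBX8-1 and 11.7 ± 4.07 CPM in shCBX8-2, against 11.5 ± 1.02 CPM in control (SD, n = 2 each). The forebrain gene DLX1 averaged 3.66 ± 0.97 CPM in shCBX8-1 and 2.42 ± 0.43 CPM in shCBX8-2, against 3.86 ± 0.50 CPM in control (SD, n = 2 each). Its neighbour DLX2 had 0.399 and 0.470 CPM in shCBX8-1 and 0.110 and 0.382 CPM in shCBX8-2, against 0.648 and 0.583 CPM in control, without overlap and without passing (-0.91 ± 0.61, adjusted p = 0.429). EN2, a cerebellum gene, averaged 5.26 ± 0.84 CPM in shCBX8-1 and 4.53 ± 0.45 CPM in shCBX8-2, against 5.32 ± 0.07 CPM in control (SD, n = 2 each).

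TALE homeodomain genes, which are cofactors of HOX proteins (MEIS) or pattern heart and limb (IRX), passed in no contrast. IRX3 averaged 8.38 ± 0.40 CPM in shCBX8-1 and 8.22 ± 2.21 CPM in shCBX8-2, against 8.28 ± 0.22 CPM in control (SD, n = 2 each), and its log2 fold change was 0.00 ± 0.17. IRX5 averaged 3.03 ± 0.16 CPM in shCBX8-1 and 4.15 ± 1.15 CPM in shCBX8-2, against 3.77 ± 0.49 CPM in control (SD, n = 2 each). IRX2 averaged 2.33 ± 0.40 CPM in shCBX8-1 and 3.52 ± 0.98 CPM in shCBX8-2, against 2.77 ± 1.14 CPM in control (SD, n = 2 each). MEIS2 had 10.1 and 11.9 CPM in shCBX8-1 and 7.98 and 7.93 CPM in shCBX8-2, against 8.26 and 8.55 CPM in control, and shCBX8-2 minus shCBX8-1 was -0.47 ± 0.14 (SE, adjusted p = 0.0937). A MEIS2 transcript had 219 and 179 estimated counts in shCBX8-1 and 179 and 55 in shCBX8-2, against 10 and 0 in control. Another had 34 and 49 in shCBX8-1 and 24 and 89 in shCBX8-2, against 144 and 168 in control. Neither passed the test by edgeR, and some other MEIS2 transcripts overlapped the controls. MEIS1 averaged 1.84 ± 0.35 CPM in shCBX8-1 and 2.81 ± 0.19 CPM in shCBX8-2, against 1.66 ± 0.72 CPM in control (SD, n = 2 each). Of the HAND genes, HAND2, a heart and sympathetic neuron factor, had 0.675 and 0.925 CPM in shCBX8-1 and 0.0788 and 0.318 CPM in shCBX8-2, against 0.392 and 0.792 CPM in control (shCBX8-2 against control, -1.57 ± 0.79, adjusted p = 0.239).

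Subunits of the Polycomb complexes other than CBX8 also passed the test. Of 36 listed subunits, all tested, CBX2, EZH2 and PHF19 rose and CBX8 and BMI1 fell for the knockdown as a whole (13.9%, against 6.79% of all genes tested), with a list median of 0.01 on the log2 scale. That share counts CBX8, the gene the hairpins target, so it overstates the share among the other subunits. EZH2, the methyltransferase of PRC2, had 68.0 and 63.4 CPM in shCBX8-1 and 73.9 and 73.6 CPM in shCBX8-2, against 43.5 and 47.2 CPM in control (0.62 ± 0.08, SE, adjusted p = 0.0109). BMI1, a RING finger partner in PRC1, had 22.6 and 16.2 CPM in shCBX8-1 and 23.1 and 29 CPM in shCBX8-2, against 57.5 and 41.0 CPM in control (-1.13 ± 0.19, adjusted p = 0.0212). CBX2, a CBX8 relative, rose in shCBX8-2 (0.67 ± 0.10, adjusted p = 0.00906) and gave 0.09 ± 0.10 in shCBX8-1 (adjusted p = 0.709). PHF19, a PRC2 accessory protein, rose by 0.63 ± 0.08 for the knockdown as a whole (adjusted p = 0.0109), and BCORL1, of a variant PRC1, fell in shCBX8-2 (-0.63 ± 0.16, adjusted p = 0.0428).

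Other genes of the same families were listed for comparison. Of 67, 44 were tested, and for the knockdown as a whole ALX1 rose and SOX2, KLF9 and DLX4 fell (9.09%, against 12.8% of the tested members and 6.79% of all genes tested). SOX2, a pluripotency and airway progenitor factor, had 4.03 and 5.02 CPM in shCBX8-1 and 0.504 and 0.556 CPM in shCBX8-2, against 3.33 and 4.63 CPM in control. Like GATA5, SOX2 was lower in shCBX8-2 than in shCBX8-1 (-3.09 ± 0.28, SE, adjusted p = 0.00235). ALX1, a paired-like relative of ALX4, rose by 0.90 ± 0.14 for the knockdown as a whole (adjusted p = 0.0178), where ALX4 gave -1.23 ± 0.28 (adjusted p = 0.0511). KLF9 gave -0.97 ± 0.18 (adjusted p = 0.0259) and DLX4 -0.66 ± 0.13 (adjusted p = 0.0312). FOXL1 (-2.03 ± 0.40, adjusted p = 0.0226) and SOX6 (-2.02 ± 0.39, adjusted p = 0.0209) fell in shCBX8-2.

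Markers of other cell types were low or absent, with a few exceptions. Of 10 leukocyte markers 5 were tested, CD3E and MS4A1 were at 0, and the summed level was 146 and 141 CPM in shCBX8-1 and 117 and 110 CPM in shCBX8-2, against 94.8 and 98.6 CPM in control, most of it CD68. For the knockdown as a whole CORO1A (1.15 ± 0.13, SE, adjusted p = 0.00830) and CD68 (0.36 ± 0.07, adjusted p = 0.0274) rose. Of 10 fibroblast markers 7 were tested, DCN was at 0 and COL1A1 fell (-0.86 ± 0.15, adjusted p = 0.0235), and the sum was 10.2 and 11.04 CPM in shCBX8-1 and 7.46 and 6.14 CPM in shCBX8-2, against 13.5 and 17.2 CPM in control. Of 6 endothelial markers 2 were tested and neither passed, KDR and ERG were at 0, and the sum was 2.73 and 4.12 CPM in shCBX8-1 and 5.72 and 4.24 CPM in shCBX8-2, against 2.74 and 1.88 CPM in control. Of 8 embryonic kidney line and neuronal markers 6 were tested, ELAVL4 was at 0 and TUBB3 rose (0.53 ± 0.07, adjusted p = 0.0135), while the other 5 had negative values, with a list median of -0.24. The neurofilament gene NEFL fell in shCBX8-2 (-1.03 ± 0.10, adjusted p = 0.00356), and SYP was lower there than in shCBX8-1 (-0.68 ± 0.15, adjusted p = 0.0360). The sum was 557 and 535 CPM in shCBX8-1 and 552 and 495 CPM in shCBX8-2, against 420 and 411 CPM in control, of which TUBB3 was 416 and 406 CPM in shCBX8-1 and 478 and 413 CPM in shCBX8-2, against 299.6 and 294 CPM in control. The part of these genes in the members' changes was not tested.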

How the data were processed

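The authors deposited 1 table of estimated counts (expected counts, whole numbers, not scaled) for 84787 RefSeq transcripts in the 6 libraries. Per the submitters' processing notes, HISAT2 2.2.1, StringTie 2.2.1 and DESeq2 1.34.0 were used with hg38. Which tool made the counts, and whether strand was used, is not given in the sources used here. Per the labels' protocols, total RNA was taken with Trizol and libraries were made by Illumina protocols.

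Transcripts were matched to genes by RefSeq (GRCh38.p14) and GENCODE tables (99.45% of entries), and summed, copies of an accession included. The quasi-likelihood test of edgeR 4.0.16 (R 4.3.3) was run after filterByExpr (minimum count 10, minimum total 15) and TMM, with 3 groups in 1 fit (3 residual degrees of freedom) and 4 contrasts: the average of shCBX8-1 and shCBX8-2 against control (the knockdown as a whole), each of them alone against control, and 1 against the other. P-values are two-sided and adjusted by Benjamini and Hochberg over 17115 genes, with a threshold of 0.05. Standard errors come from the F statistic. The fit was tested on simulated data.

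The members and gene lists were chosen with earlier results of these data known. Every member is accounted for. Members that passed in a contrast or were expressed are described with values, and of each other list up to 6 genes that passed in a contrast, those with the smallest p for the knockdown as a whole. Windows at start sites are from RefSeq, and the GATA2 exon is from GENCODE. Alternatives were another normalization, DESeq2 1.42.0, no filter, copies left out, a minimum fold, other sets of libraries, a replicate block and, chosen after seeing the data, a correction for GC content and a fit of transcripts as deposited.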

Additional observations from a re-analysis of the deposited data

Results flagged for a closer look

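The changes of 6 members differed between the knockdown groups, by the test of shCBX8-2 against shCBX8-1 itself (edgeR, adjusted over all 17115 genes). PAX2 was lower in shCBX8-2, with a log2 difference of -2.71 (adjusted p = 0.00131), and lay on opposite sides of control in the shCBX8-1 and shCBX8-2 libraries. GATA5 was lower in shCBX8-2 by a log2 difference of -2.69 (adjusted p = 0.0257) and ALX4 by -1.53 (adjusted p = 0.0420). KLF4 was higher in shCBX8-2 by 0.89 (adjusted p = 0.00736), TBX2 by 1.06 (adjusted p = 0.0257) and ZIC2 by 0.52 (adjusted p = 0.0386). CBX8 had more RNA in shCBX8-2 than in shCBX8-1 (15.8 ± 2.82 against 7.75 ± 0.06 CPM, SD, n = 2 each), and the part of that difference in these values was not tested.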

How the results depend on the processing

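No called value of a member changed sign under any alternative. The members called were 5 for the knockdown as a whole, 2 in shCBX8-1, 8 in shCBX8-2 and 6 between the knockdown groups. Leaving out 1 library each gave 0 to 10, 0 to 6, 0 to 12 and 1 to 12. Of the 21 called values, 2 still passed without control replicate 1 or 2 (KLF4 and PAX2 between the knockdown groups), 6 without shCBX8-1 replicate 1 or 2, 20 without shCBX8-2 replicate 1 and 21 without shCBX8-2 replicate 2. The DESeq2 Wald test gave 8 for the knockdown as a whole, 5 in shCBX8-1 and 13 in shCBX8-2, where 14.3%, 9.99% and 20.8% of all genes passed. With no filter on low counts the first 2 counts were 3 and 1. Leaving out repeated accessions gave 1 in shCBX8-1. A fit of only the libraries compared gave 6 in shCBX8-1, 5 in shCBX8-2 and 2 between the groups, and the knockdown libraries as 1 group gave 0 for the knockdown as a whole (6 at an unadjusted p under 0.05). A minimum of 2-fold gave 1 for the knockdown as a whole and 5 in shCBX8-2. The GC correction gave 8 for the knockdown as a whole, also with the replicate block (14.9% and 12.6% of all genes). Transcripts as deposited gave 0 in each contrast. Apart from the construction of these alternatives (fewer libraries, more tests, a further criterion), the cause was not tested.

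Same-numbered libraries did not deviate together (correlations of -0.010 for shCBX8-1 and control, -0.017 for shCBX8-2 and control, and 0.016 for shCBX8-2 and shCBX8-1), so the numbers were not taken as pairs. With the replicate block the members called were 3 for the knockdown as a whole, 0 in shCBX8-1, 8 in shCBX8-2 and 3 between the groups. With limits of 0.5 and 0.05 CPM, 2 members in place of 7 were low. Leaving out a control library gave 33 expressed, 7 to 8 low and 14 to 15 near-silent. Genes near a few counts per library, as for the near-silent members, could not be tested at this depth.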
